A study of Homo sapiens with 10 samples.

Results

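The insulin-like growth factor (IGF) receptors, the IGF binding proteins and the receptor adaptor IRS1 were followed across 10 expression arrays of non-small cell lung cancer cells. All probe sets annotated to only 1 of the 10 genes IGFBP1 to IGFBP7, IGF1R, IGF2R and IRS1 were taken, which gave 27 probe sets among the 41091 that name 1 gene and the 54675 on the array. A549 is a lung adenocarcinoma line and HTB-182, called H520 in the series title, is a squamous lung carcinoma line. Cells of each line spent 4 h in 10% charcoal-stripped serum and were then exposed for 3 h to estradiol-BSA (1 µM, estradiol joined to bovine serum albumin) plus 10 µM tamoxifen, to 1 µM estradiol-BSA, to 1 µM estradiol plus 10 µM tamoxifen, to 1 µM estradiol, or to ethanol vehicle at 0.1%. The conjugate was meant to act on receptors at the plasma membrane only and free estradiol on intracellular and membrane receptors, with tamoxifen as the inhibitor.

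Each line and treatment had a single array and no replicate cultures are stated, so a p-value here reflects only how these arrays scatter, which could be technical. There was no array of albumin alone or of tamoxifen alone, so albumin and the estradiol it carries cannot be told apart. For estradiol plus tamoxifen the array titles give tamoxifen only, and the source descriptions, which give both agents, were followed. Each line is 1 established cell line, so a difference between them is a difference between these lines and not between tumour types.

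IGF1 and IGF2 act through IGF1R, a tyrosine kinase receptor that recruits adaptors such as IRS1 and, through them, phosphoinositide 3-kinase and AKT. IGF2R, the cation-independent mannose 6-phosphate receptor, has no kinase and carries IGF2 to lysosomes. The secreted binding proteins hold IGFs outside the cell, lengthen their half-life or keep them from IGF1R, and are opened by proteases that release the ligand. In lung carcinoma IGF1R has been studied as a drug target, and estrogen and IGF signalling are known to cross-talk in breast cells.

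Among the members with large line differences below were IGFBP5, which was high in HTB-182, and IGFBP4, IGF1R and IGFBP6, which were high in A549. Their promoters, from 250 bases before to 50 after the annotated start, are shown 5′ to 3′ on the strand of the gene as the stretch of genome next to these line differences. They come from RefSeq on GRCh38.p14, at chr2:216695500-216695799 on the minus strand for IGFBP5, chr17:40443200-40443499 on the plus strand for IGFBP4, chr15:98648289-98648588 on the plus strand for IGF1R and chr12:53097417-53097716 on the plus strand for IGFBP6. Capitals mark matches on either strand to the motifs TATAAA (the core promoter box bound by the initiation complex), CACGTG (an E-box), GGGCGG (a GC box), GTAAACA (a forkhead motif) or GGTCA (an estrogen response half-site).
IGFBP5: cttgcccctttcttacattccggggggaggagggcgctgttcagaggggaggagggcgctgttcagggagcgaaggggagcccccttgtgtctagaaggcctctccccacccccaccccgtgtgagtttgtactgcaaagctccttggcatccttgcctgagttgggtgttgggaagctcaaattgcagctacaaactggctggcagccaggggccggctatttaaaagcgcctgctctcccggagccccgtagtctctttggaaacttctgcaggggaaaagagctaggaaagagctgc
IGFBP4: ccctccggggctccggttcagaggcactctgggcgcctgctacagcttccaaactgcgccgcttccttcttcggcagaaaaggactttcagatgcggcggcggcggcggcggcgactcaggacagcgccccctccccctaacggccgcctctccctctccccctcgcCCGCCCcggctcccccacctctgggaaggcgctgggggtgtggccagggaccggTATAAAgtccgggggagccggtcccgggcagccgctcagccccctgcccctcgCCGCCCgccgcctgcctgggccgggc
IGF1R: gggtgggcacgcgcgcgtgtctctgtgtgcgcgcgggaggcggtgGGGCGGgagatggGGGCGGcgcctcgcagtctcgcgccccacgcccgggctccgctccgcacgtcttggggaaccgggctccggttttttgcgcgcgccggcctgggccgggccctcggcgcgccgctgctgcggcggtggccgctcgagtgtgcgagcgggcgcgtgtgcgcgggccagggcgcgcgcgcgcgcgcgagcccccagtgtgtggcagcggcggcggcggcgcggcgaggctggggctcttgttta
IGFBP6: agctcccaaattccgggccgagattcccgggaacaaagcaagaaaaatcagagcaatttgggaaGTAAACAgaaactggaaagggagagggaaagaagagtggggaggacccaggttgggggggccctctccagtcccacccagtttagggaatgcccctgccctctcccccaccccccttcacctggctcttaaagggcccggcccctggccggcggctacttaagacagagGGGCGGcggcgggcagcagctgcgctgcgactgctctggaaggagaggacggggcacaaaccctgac
The GC content was 59% for IGFBP5, 74% for IGFBP4, 79.7% for IGF1R and 61.7% for IGFBP6, beside a median of 58.7% over all 35116 promoters in the table. The IGFBP5 window held no match to any of the motifs. IGFBP4 held TATAAA beginning 29 bases before the start and 2 GC boxes, IGF1R held 2 GC boxes, and IGFBP6 held 1 GC box and the forkhead motif, 186 bases before its start. No motif overlapped another in these windows. TATAAA was in 11.5% of all promoters, CACGTG in 7.26%, GGGCGG in 45%, GTAAACA in 3.42% and GGTCA in 37.4%. A pair of inverted half-sites 3 bases apart, the full estrogen response element, was in 0.057% of promoters and in none of the windows of the member genes that had one. No window was available for IGFBP1 or IGFBP7, so neither promoter was searched. A match here is a match of letters and not a binding site.

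Intensities had a median of 17.5 to 21.5 per array. A probe set was tested where its mean log2(intensity + 16) was at or above 5.16, which equals an intensity of 19.7, as 23144 were. Of the 27 probe sets, 21 passed this filter, including at least 1 of every gene. The A549 vehicle array stood apart, since 479 tested probe sets on it differed by 2-fold or more from the average of its line's other arrays (461 of them lower), beside 39 to 73 on each other A549 array and 0 to 18 in HTB-182. Across probe sets, arrays correlated at 0.966 to 0.996 within A549, at 0.993 to 0.997 within HTB-182 and at 0.786 to 0.803 between the lines. By markers the 2 lines matched their labels in part. AGR2, an adenocarcinoma marker, had an intensity of 4349 ± 509 in A549 and 13.8 ± 3.36 in HTB-182 (SD, n = 5 arrays each), and KRT7, a simple-epithelium keratin, had 3411 ± 581 in A549 and 18.1 ± 4.37 in HTB-182. SOX2, a squamous marker, had 135 ± 59.6 in A549 and 4152 ± 229 in HTB-182. Of the 8 squamous markers with a probe set, 4 were at or above 19.7 in each line, and the keratin KRT14 and the desmosomal DSG3 were below it in both. KRT5 had 26.15 ± 3.93 in A549 and 22.06 ± 4.21 in HTB-182, and PKP1 and DSG3 also had a higher mean in A549. DSC3, TRIM29, KRT14 and SERPINB5 had a higher mean in HTB-182, all far closer between the lines than SOX2. Of the 9 alveolar and adenocarcinoma markers, 7 were at or above 19.7 in A549 and 5 in HTB-182, with NKX2-1 and SFTPD below it in both. SFTPC had 41.65 ± 12.7 in A549 and 47.96 ± 5.11 in HTB-182, and SFTPB and NKX2-1 also had a higher mean in HTB-182. NAPSA, SFTPD, MUC1 and CEACAM6 had a higher mean in A549. The 7 fibroblast markers summed to 412 to 604 in A549 and 107 to 131 in HTB-182, with 4 of 7 at or above 19.7 in A549 and 3 of 7 in HTB-182. COL1A1, a fibrillar collagen, made up most of the A549 sum at 382 ± 78.4 in A549 and 20.6 ± 1.40 in HTB-182, while COL1A2 and LUM were below 19.7 in both. The 7 blood and endothelial markers summed to 144 to 229 in A549 and 109 to 128 in HTB-182, with 3 of 7 at or above 19.7 in each line. CD14, a monocyte receptor, had 82.2 ± 36.6 in A549 and 10.6 ± 1.46 in HTB-182, LYZ, the lysozyme gene, had 9.24 ± 3.06 in A549 and 35.9 ± 5.56 in HTB-182, and PTPRC and CDH5 were below 19.7 in both. The part of these markers in the line differences was not tested.

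A549 and HTB-182 differed in nearly the whole IGF receptor and binding protein set. IGF1R, IRS1 and the binding proteins IGFBP1, IGFBP4, IGFBP6 and IGFBP7 were higher in A549, IGFBP5 was far lower, IGFBP3 was a little higher, and IGFBP2 and IGF2R were a little lower. By limma over 5 treatment-matched pairs, 13 of the 21 tested probe sets rose and 7 fell at an adjusted p under 0.05. Of all tested probe sets 63.8% passed this test, 31.5% higher and 32.3% lower, so the share of members called is to be read against a background that is itself large. The size of the difference is given as a description and not as a test. The median absolute log2 difference was 3.08 over the member probe sets and 0.41 over all tested, and 13 of 21 were at least 2-fold apart, beside 22.2% of all tested. In 20 of 21 the 5 A549 values and the 5 HTB-182 values did not overlap, beside 55.6% of all tested. Probe sets of 1 gene share their transcript, so these counts are not of independent genes. Many member probe sets passed the filter only through the line where they were higher, with a mean intensity below 19.7 in the other. Those higher in A549 were IGFBP1 205302_at, IGFBP4 201508_at, IGFBP6 203851_at, IGF1R 225330_at, 203628_at and 203627_at, and IRS1 242979_at and 238933_at. Those higher in HTB-182 were IGFBP5 211959_at and 203424_s_at and IGF2R 1569052_at. IGF1R 225330_at, for example, had a mean intensity of 461 in A549 and 6.41 in HTB-182. The members were also chosen with earlier results of these data known, so these sizes and shares are no evidence about the gene set. With the brightest probe set of each gene, 7 of 10 genes rose, 3 fell and 7 were at least 2-fold apart. Values below are given in the order estradiol-BSA plus tamoxifen, estradiol-BSA, estradiol plus tamoxifen, estradiol and vehicle. Differences are A549 minus HTB-182 on the log2(intensity + 16) scale, which understates the change of dim genes, and each fold is taken on that scale.

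**Figure D1:**
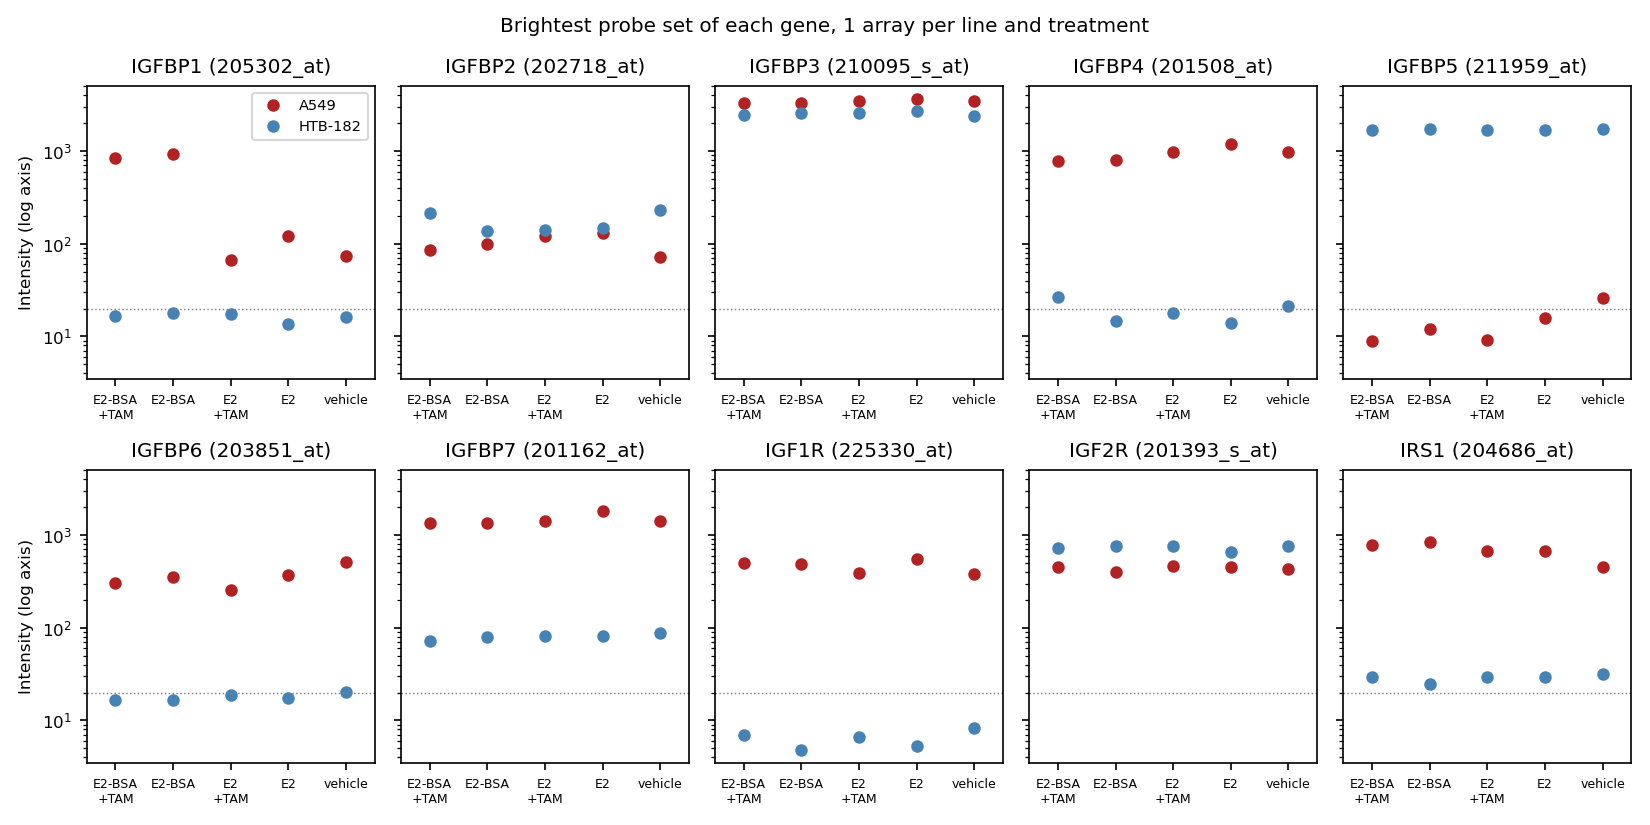
Intensity (log axis) of the brightest probe set of each of the 10 genes on each array, with the treatments along the x axis, A549 in red and HTB-182 in blue. Each point is 1 array and the dotted line is the filter of 19.7. IGFBP4, IGFBP6, IGFBP7, IGF1R and IRS1 lie higher in all A549 arrays, IGFBP5 lies higher in all HTB-182 arrays, and IGFBP1 in A549 is high on the 2 estradiol-BSA arrays.

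IGF1R, the signalling receptor, was read by 225330_at at 496, 489, 394, 547 and 378 in A549, against 7.01, 4.80, 6.61, 5.25 and 8.38 in HTB-182. The A549 values lay within a narrow band, and all HTB-182 values were below the filter. The difference was 4.40 ± 0.12 (SE) with a limma adjusted p of 8.3e-11. Another probe set of the gene, 203628_at, had 246, 290.1, 312, 435 and 302 in A549, against 6.40, 6.08, 4.44, 4.47 and 4.22 in HTB-182. The third, 203627_at, had 239, 206, 182, 242 and 163 in A549, against 7.64, 9.34, 12.9, 10.6 and 9.92 in HTB-182. Their differences were 3.96 ± 0.13 and 3.08 ± 0.12, so the 3 tested probe sets of IGF1R put it high in A549 and below the filter in HTB-182. The other two probe sets of the gene, 208441_at and 243358_at, were below the filter on every array of both lines.

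IGF2R, the receptor that clears IGF2, differed the other way and less. Its brightest probe set, 201393_s_at, had 454, 402, 459.7, 452 and 427 in A549, against 722, 762, 755, 660.1 and 764 in HTB-182. The groups did not overlap, and the difference was -0.72 ± 0.09 (limma adjusted p = 1.98e-05). The probe set 201392_s_at had 161, 156, 147, 218 and 191 in A549, against 221, 253, 288, 308 and 299.6 in HTB-182. The probe set 1569052_at had 18.6, 17.1, 18.6, 22.6 and 14.5 in A549, against 56.7, 40.2, 48.5, 39.4 and 48.3 in HTB-182. These gave -0.61 ± 0.10 and -0.87 ± 0.10, so all 3 IGF2R probe sets were lower in A549 by less than 1 on the log2(intensity + 16) scale. That scale compresses the dim 1569052_at, whose mean intensity was 18.3 in A549 and 46.6 in HTB-182.

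IRS1, the adaptor that links IGF1R and the insulin receptor to phosphoinositide 3-kinase, was higher in A549 by all 3 of its probe sets. The brightest, 204686_at, had 783, 838, 676, 681 and 447 in A549, against 29.1, 24.7, 29.5, 29.4 and 31.5 in HTB-182. The A549 vehicle array was the lowest of its line and still far above every HTB-182 array. The difference was 3.94 ± 0.15 (limma adjusted p = 8.03e-10). The probe set 242979_at had 199.8, 223, 192, 165 and 190.3 in A549, against 7.18, 9.14, 8.17, 8.79 and 9.22 in HTB-182. The dimmer 238933_at had 39.1, 44.0, 41.1, 44.8 and 50.03 in A549, against 20.3, 18.0, 16.8, 17.0 and 19.3 in HTB-182. Their differences were 3.09 ± 0.10 and 0.80 ± 0.08, so the 3 probe sets had the same direction and unequal sizes.

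Among the binding proteins, IGFBP4, which binds both IGFs and is cut by the protease PAPPA, was read by 201508_at at 785, 802, 966, 1182 and 977 in A549, against 26.8, 14.8, 17.7, 14.0 and 21.1 in HTB-182. It was high on all A549 arrays and near the filter on all HTB-182 arrays, with a difference of 4.78 ± 0.14 (limma adjusted p = 1.24e-10). IGFBP6, which prefers IGF2, had 302, 352, 257, 369 and 516 in A549, against 16.5, 16.6, 19.0, 17.3 and 20.3 in HTB-182 by 203851_at. The HTB-182 values were at or below the filter except for vehicle, and the difference was 3.43 ± 0.13 (limma adjusted p = 1.04e-09). In A549 the vehicle array had the highest IGFBP6 value.

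IGFBP7, a related secreted protein with low affinity for IGFs, was higher in A549 by both tested probe sets. The brighter over all arrays, 201162_at, had 1351, 1356, 1418, 1796 and 1401 in A549, against 72.4, 79.2, 81.0, 81.8 and 86.9 in HTB-182. The other, 201163_s_at, had 1823, 2203, 1823, 961 and 640.3 in A549, against 27.2, 30.6, 26.9, 31.0 and 34.2 in HTB-182. Within A549 these had different patterns, since 201163_s_at was lowest on the vehicle array and 201162_at highest on the estradiol array. The differences were 3.94 ± 0.10 and 4.90 ± 0.24, with limma adjusted p of 2.93e-11 and 8.56e-09. The third IGFBP7 probe set, 213910_at, was at 3.66 to 5.13 on every array and was not tested.

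IGFBP5, which binds IGFs and the extracellular matrix, was the member with the largest difference and the opposite direction. Its brightest probe set, 211959_at, had 8.84, 11.99, 9.21, 15.7 and 26.1 in A549, against 1696, 1709.9, 1676, 1676 and 1747 in HTB-182. HTB-182 lay between 1676 and 1747, while A549 was below the filter on every array but vehicle. The difference was -5.85 ± 0.12 (limma adjusted p = 8.92e-12). The probe set 203424_s_at had 8.54, 7.81, 6.61, 11.3 and 7.81 in A549, against 191, 272, 299, 265 and 251 in HTB-182, a difference of -3.47 ± 0.12. The probe set 211958_at had 25.8, 21.4, 25.0, 15.7 and 18.0 in A549, against 77.8, 53.4, 82.8, 45.0 and 125 in HTB-182, a difference of -1.26 ± 0.15. The probe set 203426_s_at had 16.7, 22.5, 22.6, 15.1 and 34.9 in A549, against 36.0, 29.7, 17.8, 30.3 and 32.3 in HTB-182. Its groups overlapped, and at -0.25 ± 0.13 it was the only tested member probe set that missed the threshold (limma adjusted p = 0.11). It passed when any 1 of the vehicle or estradiol plus tamoxifen arrays of either line was left out, at limma adjusted p of 0.0277 to 0.0346. Leaving out either array of a treatment pair gave the same estimate, so omissions within a pair are not separate checks. The remaining IGFBP5 probe sets, 203425_s_at and 1555997_s_at, were not tested.

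IGFBP3, the main carrier of IGFs in serum, was high in both lines. Its brightest probe set, 210095_s_at, had 3338, 3316, 3503, 3614 and 3483 in A549, against 2438, 2566, 2563, 2679 and 2378 in HTB-182. The probe set 212143_s_at had 943, 956, 1100.2, 1324 and 1079 in A549, against 578, 733, 779.7, 817 and 803 in HTB-182. The A549 values lay above the HTB-182 values by both, with differences of 0.45 ± 0.05 and 0.53 ± 0.08 and limma adjusted p of 1.39e-05 and 0.000122. IGFBP2, which also binds integrins, had 84.9, 98.2, 121, 132 and 72.8 in A549, against 212, 136, 142, 148 and 234 in HTB-182 by 202718_at. The highest A549 value, of estradiol, was just below the lowest HTB-182 value, of estradiol-BSA. The difference was -0.69 ± 0.19 (limma adjusted p = 0.00765), and the pairs ranged from -1.49 for vehicle to -0.15 for estradiol.

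IGFBP1, a stress-responsive binding protein made mainly by liver, was higher in A549 by 2.91 ± 0.48 (limma adjusted p = 0.000232), with the widest error of the set. Its pairs ranged from 1.30 for estradiol plus tamoxifen to 4.81 for estradiol-BSA and the values of each array are given with the estrogen forms below. IGFBP2 and IGFBP5 are neighbours on chromosome 2, as IGFBP1 and IGFBP3 are on chromosome 7, with 0 genes starting between the members of either pair in GRCh38.p14. IGFBP5 differed by far more than IGFBP2 between the lines, and IGFBP1 by far more than IGFBP3. The comparison is between differences and not between levels.

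**Figure D2:**
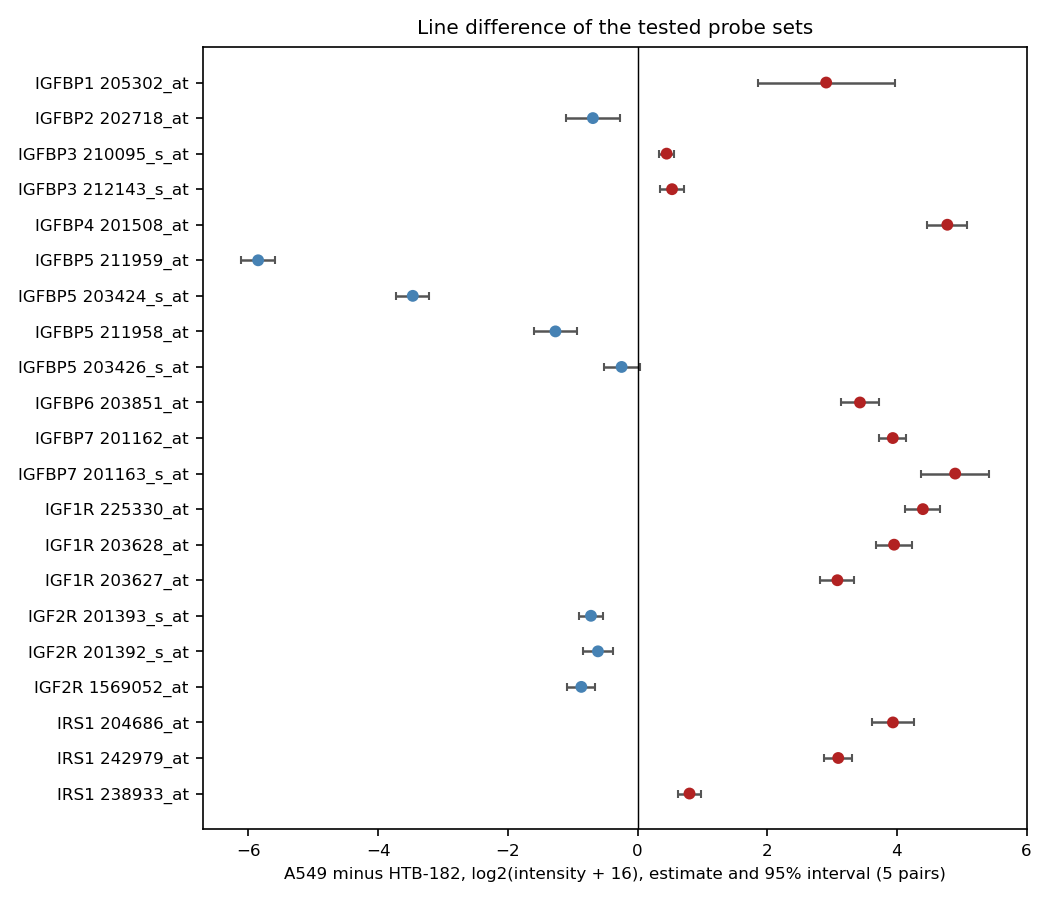
A549 minus HTB-182 difference on the log2(intensity + 16) scale for the 21 tested probe sets, with the limma 95% interval over 5 pairs (red higher in A549, blue lower). The interval of IGFBP5 203426_s_at crosses 0, and IGFBP1 has the widest interval among probe sets far from 0.

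The other genes of the pathway were taken from a list of 65 ligands, receptors, proteases, adaptors and downstream kinases, of which 59 had a probe set naming that gene alone and 51 were tested. In the line comparison 24 were higher in A549, 15 lower and 12 not called, beside the 31.5% and 32.3% of all tested probe sets. The median absolute difference was 0.78, against 0.41 over all tested. The largest increase was of PAPPA, the protease that cuts IGFBP4, with 1449 ± 325 in A549 and 4.46 ± 0.468 in HTB-182 (SD, n = 5 arrays each) and a difference of 6.13 (limma adjusted p = 9.84e-12). IGF2BP3, a protein that binds IGF2 mRNA, had 3.86, the matricellular CCN2 had 3.22, the signalling suppressor SOCS2 had 2.45, the adaptor SHC1 had 2.44 and the matricellular CCN1 had 2.39. The largest decreases were of TXNIP, a FOXO-responsive regulator of glucose uptake, at -4.02, of the ligand IGF1 at -2.80, of STC2, which inhibits PAPPA, at -2.68, of IGFBPL1 at -2.03, of EIF4EBP1, the translational repressor that mTOR phosphorylates, at -1.65 and of SESN3 at -1.56.

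IGF1 by its brightest probe set had 4.65, 5.83, 6.24, 6.02 and 7.80 in A549, against 113, 220.3, 107, 87.1 and 204 in HTB-182. It was below the filter on all A549 arrays and unsteady between HTB-182 arrays. IGF2 was not analysed, because its probe sets name several genes. INSR, the insulin receptor that can pair with IGF1R, had 68.4, 43.3, 48.6, 57.9 and 34.4 in A549, against 14.9, 17.1, 15.6, 14.2 and 15.01 in HTB-182, with a difference of 1.06 (limma adjusted p = 6.16e-06). IRS2, the adaptor related to IRS1, had 1444, 1376, 1364, 1140.0 and 1117 in A549, against 300.1, 266, 310.0, 255 and 278 in HTB-182, with a difference of 2.13 (limma adjusted p = 1.58e-09). PAPPA, IGFBP4, IGF1R, IRS1 and IRS2 were thus all higher in A549, and IGF1 and STC2 higher in HTB-182. STC1 went opposite to STC2, with 106 ± 19.2 in A549, 19.2 ± 2.95 in HTB-182 and a difference of 1.79 (limma adjusted p = 5.06e-08). The pathway genes named here are a pick from the 51 tested, of which 24 were higher in A549 and 15 lower.

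Estradiol-BSA was compared with estradiol, which asks what the conjugate does beside the free hormone at the same stated concentration and time. That the conjugate acted at the membrane only was not tested. IGFBP1 was the member with by far the largest difference, which was in A549. Its probe set 205302_at had 851 in A549 with estradiol-BSA plus tamoxifen and 939 with estradiol-BSA, against 67.0 with estradiol plus tamoxifen and 121 with estradiol, while vehicle had 73.9. In HTB-182 the values were 16.4 and 18.1 with the conjugate, against 17.7 and 13.6 with estradiol, and vehicle had 16.2. The 2 conjugate arrays of A549 were thus far above all other arrays, and all HTB-182 arrays were below the filter. Within A549 the difference was 3.39 with tamoxifen present and 2.80 without it, while in HTB-182 it was -0.05 and 0.20. A difference of 2-fold or more in the same direction in both A549 pairs was shown by 11 of all tested probe sets (0.0475%, 6 higher and 5 lower), and IGFBP1 was the only member among them. In HTB-182 it was shown by 3 (0.013%), with 0 members.

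Over the 4 pairs of both lines the estradiol-BSA minus estradiol difference of IGFBP1 was 1.58 ± 0.54, the largest in size of all 23144 tested. Its unadjusted p by limma was 0.0132 and its adjusted p was 1.00, so it did not pass. Of the 21 members 0 passed, as did 0.00432% of all tested, and 876 of the 23144 had an unadjusted p under 0.05. IGFBP3 by 212143_s_at had -0.31 ± 0.09 (unadjusted p = 0.0052 by limma) and was lower in all 4 pairs, from -0.46 to -0.15. Its brighter probe set had -0.08 ± 0.06. The other 19 tested probe sets had estimates from -0.24 for IGF2R 201392_s_at to 0.30 for IGFBP7 201163_s_at.

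The difference between the lines in this response was tested itself. For IGFBP1 it was 3.02 ± 0.59 (A549 minus HTB-182, 95% interval 1.71 to 4.33), again the largest in size of all tested probe sets. The limma unadjusted p was 0.00045 and the adjusted p 0.978, so it did not pass over all probe sets, and 0.0% of them did (0 of 23144, with 551 at an unadjusted p under 0.05). The adjusted p was 0.00258 without the A549 vehicle array and 0.00248 without the HTB-182 vehicle array, with the same estimate of 3.02. These omissions change the same residual and are not separate checks. Within each line every conjugate array has 1 partner only, so the difference within A549 rests on 4 arrays. The difference between the lines rests on these and on 4 arrays of HTB-182. In A549 the pair without tamoxifen and the pair with it gave the same direction.

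**Figure D3:**
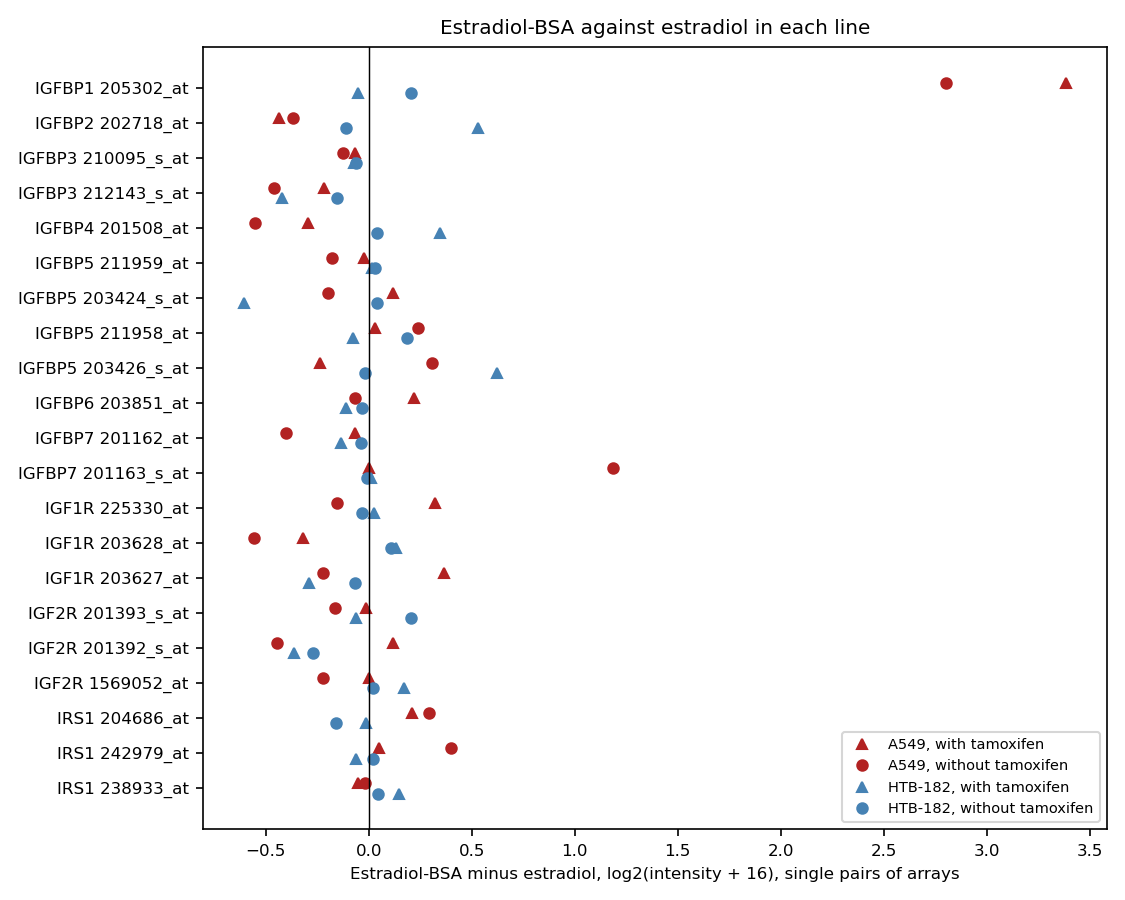
Estradiol-BSA minus estradiol on the log2(intensity + 16) scale for the 21 tested probe sets, in single pairs of arrays with tamoxifen (triangles) and without it (circles), A549 in red and HTB-182 in blue. IGFBP1 in A549 lies at 2.80 and 3.39, and apart from IGFBP7 201163_s_at at 1.18 all other points lie within 1 of 0.

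**Figure D4:**
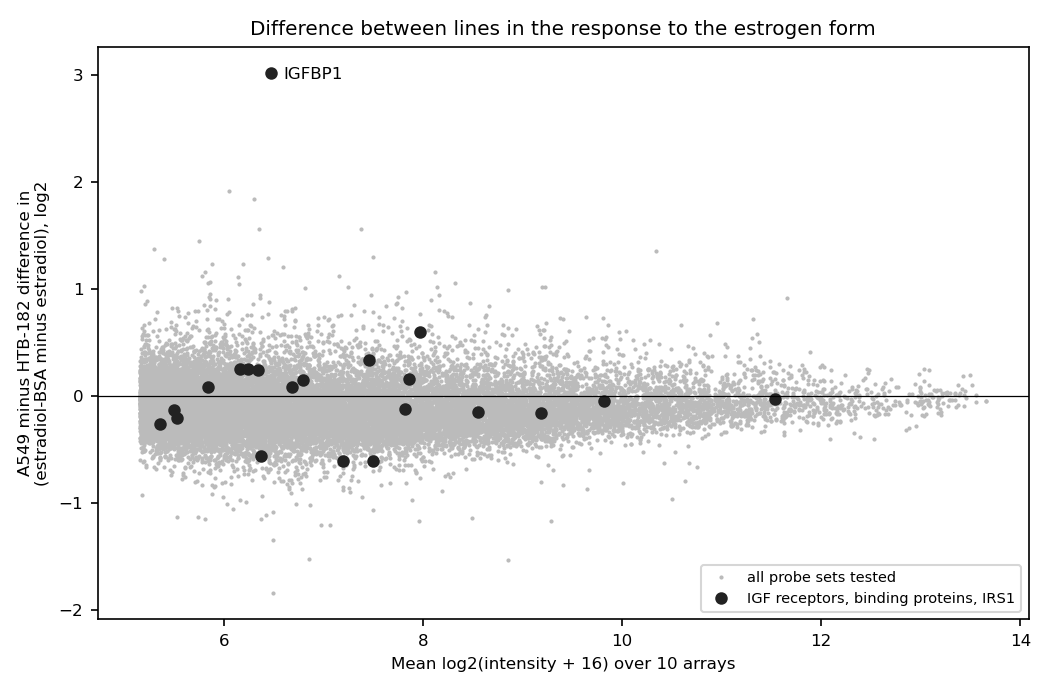
Difference between the lines in the estradiol-BSA minus estradiol response (log2) against the mean log2(intensity + 16) over 10 arrays, for all tested probe sets (grey) and the member probe sets (black). IGFBP1 is the highest point, at 3.02, and the other member points lie within the grey cloud.

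Of the other members, IGFBP4 had -0.61 ± 0.27 and IGF1R 203628_at had -0.56 ± 0.25, with unadjusted p of 0.0462 and 0.0467 and an adjusted p of 0.978 by limma. The fit with array quality weights stopped before convergence and called 9231 of the 23144 probe sets, among them 10 of the 21 members. IGFBP1, IGFBP4 and IGF1R 203628_at were called in it, at limma adjusted p of 3.84e-05, 0.00194 and 0.00118, with estimates of 2.55, -0.71 and -0.72. That fit gave the estradiol array of each line a weight of 11.5, beside 0.209 to 2.00 for the others, so these p-values are not taken as support. Without weights, the 95% intervals of the other 18 probe sets all held 0. The IGFBP1 gene has another probe set, 237989_at, which was at 3.18 to 4.83 on every array and was not tested. The finding on IGFBP1 therefore rests on 205302_at alone, and whether 237989_at reads the same transcript was not tested. No other pathway gene passed in the comparison of estrogen forms or in the difference between lines in it, and IGF1, INSR and IRS2 had adjusted p of 0.978 to 1.00 by limma. The estradiol-BSA minus estradiol estimates were 0.29 for IGF1, 0.04 for INSR and 0.09 for IRS2, and with tamoxifen the estimates were -0.17, 0.07 and 0.19 for these genes.

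Tamoxifen was added to both estrogen forms, which asks whether it opposes them. By limma over 4 pairs 0 of 21 member probe sets passed, as did 0.0% of all tested, with 392 of the 23144 at an unadjusted p under 0.05. IGFBP1 had -0.19 ± 0.54, with a log2 difference of -0.14 with the conjugate and -0.72 with estradiol in A549. The 95% interval was -1.37 to 0.99, which holds a 2-fold decrease. The largest member estimate was of IGFBP5 211958_at at 0.41 ± 0.17 (unadjusted p = 0.032 by limma), whose brighter probe set 211959_at had -0.13 ± 0.14. The other 19 ranged from -0.19 for IGF2R 201392_s_at to 0.12 for IGF2R 1569052_at. The difference between lines in the tamoxifen response passed for 0 of 21 members and 0.0% of all tested (143 at an unadjusted p under 0.05 by limma). In single pairs, 0 members in A549 and 0 in HTB-182 differed by 2-fold or more in the same direction with both estrogen forms, beside 0.00432% and 0.00864% of all tested.

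Each treatment was also set against vehicle, which asks for the effect of the agents themselves. Over both lines 0 of 21 member probe sets and 0.0% of all tested passed in any of these comparisons by limma, with 2024 of the 23144 at an unadjusted p under 0.05 for estradiol-BSA plus tamoxifen, 1569 for estradiol-BSA, 1080 for estradiol plus tamoxifen and 1117 for estradiol. IGFBP1 had 1.64 ± 0.76 with estradiol-BSA plus tamoxifen, 1.75 ± 0.76 with estradiol-BSA, -0.02 ± 0.76 with estradiol plus tamoxifen and 0.24 ± 0.76 with estradiol. In A549 alone these were 3.27, 3.41, -0.12 and 0.61, and in HTB-182 0.01, 0.08, 0.07 and -0.12. All 4 comparisons share the vehicle arrays. IGFBP6 had negative estimates in all 4, from -0.51 with estradiol plus tamoxifen to -0.29 with estradiol, and each A549 array was lower than vehicle by 0.47 to 0.96. IRS1 204686_at was higher than vehicle on every treated A549 array, by 0.58 to 0.88, while in HTB-182 it was lower by 0.06 to 0.22. All these A549 differences use the vehicle array that stood apart.

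Without the HTB-182 vehicle array, which leaves 1 vehicle array, the members called were 5 with estradiol-BSA plus tamoxifen, 3 with estradiol-BSA, 4 with estradiol plus tamoxifen and 0 with estradiol, among 2967, 2716, 2150 and 1454 probe sets called in all. Those were IGFBP7 201163_s_at and IRS1 204686_at in 3 of the comparisons each, IGFBP1 in both with the conjugate, and IGFBP6 and IGFBP5 211959_at in both with tamoxifen. Without the A549 vehicle array 0 members were called, and the IRS1 204686_at estimates were -0.05 with estradiol-BSA plus tamoxifen, -0.08 with estradiol-BSA and -0.15 with estradiol plus tamoxifen, beside 0.36, 0.33 and 0.26 with all arrays. IGFBP7 201163_s_at had -0.11 with each tamoxifen treatment on that omission. In A549 alone, 1.17% of tested probe sets differed from vehicle by 2-fold or more in 1 direction on all 4 treated arrays (267 higher, 4 lower), and 0 members did. In HTB-182 0.00432% did, with 0 members.

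The difference between lines in treated against vehicle was called for 2 of 21 member probe sets, beside 3.38% of all tested (540 higher and 242 lower in A549). IGFBP7 201163_s_at had 1823 with estradiol-BSA plus tamoxifen, 2203 with estradiol-BSA, 1823 with estradiol plus tamoxifen and 961 with estradiol in A549, against 640.3 with vehicle, and in HTB-182 27.2, 30.6, 26.9 and 31.0, against 34.2 with vehicle. Its difference between lines was 1.49 ± 0.35 (limma adjusted p = 0.035). The other tested probe set of the gene, 201162_at, had 0.19 ± 0.21 (adjusted p = 0.624 by limma), so the 2 disagree. Over all arrays 201162_at was the brighter, at a mean of 772 against 760, but in A549 it was not, at 1465 against 1490. The call of 201163_s_at was lost with no filter (limma adjusted p = 0.0501), after rescaling (0.0665), after quantile normalization (0.0699) and without any 1 of the 4 tamoxifen arrays (0.0649 to 0.0811).

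IGFBP5 211958_at had 0.99 ± 0.22 (limma adjusted p = 0.0273, and 0.0504 with no filter). A549 was at 15.7 to 25.8 throughout, while in HTB-182 the treated arrays had 77.8, 53.4, 82.8 and 45.0, against 125 with vehicle. The brightest probe set, 211959_at, had -0.58 ± 0.23 (adjusted p = 0.167 by limma) and lay between 1676 and 1747 in HTB-182. It passed at 0.0294 without the A549 estradiol array and at 0.0395 without the HTB-182 estradiol array. IRS1 204686_at had 0.82 ± 0.25 (adjusted p = 0.0885 by limma) and IGFBP2 had 1.01 ± 0.33 (adjusted p = 0.11 by limma). The treated IGFBP2 values were 84.9, 98.2, 121 and 132 in A549, against 72.8 with vehicle, and 212, 136, 142 and 148 in HTB-182, against 234 with vehicle. IRS1 204686_at passed without either estradiol array (0.0243 without that of A549, 0.0215 without that of HTB-182), and IGFBP2 without either estradiol-BSA plus tamoxifen array (0.0231 and 0.0232). Here and for IGFBP7, leaving out either array of a treatment pair gave the same estimate, so such omissions are not separate checks. The fit reads each vehicle array exactly, so the p-values of this test assume that the lone vehicle arrays vary like the treated ones, and the A549 vehicle array stood apart. In this test 1 of the 51 tested pathway genes was called, beside 3.38% of all tested probe sets. It was RPTOR, a subunit of the mTOR complex, at -1.06 (limma adjusted p = 0.022). RPTOR had 85.25, 60.0, 71.4 and 70.0 on the treated A549 arrays, against 131.8 on the vehicle array that stood apart. In HTB-182 it had 75.6, 58.9, 54.8 and 56.8, against 46.8 with vehicle. The same test gave 0.51 for IGF1, 0.45 for INSR and 0.23 for IRS2, with adjusted p of 0.271 to 0.488 by limma.

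**Figure D5:**
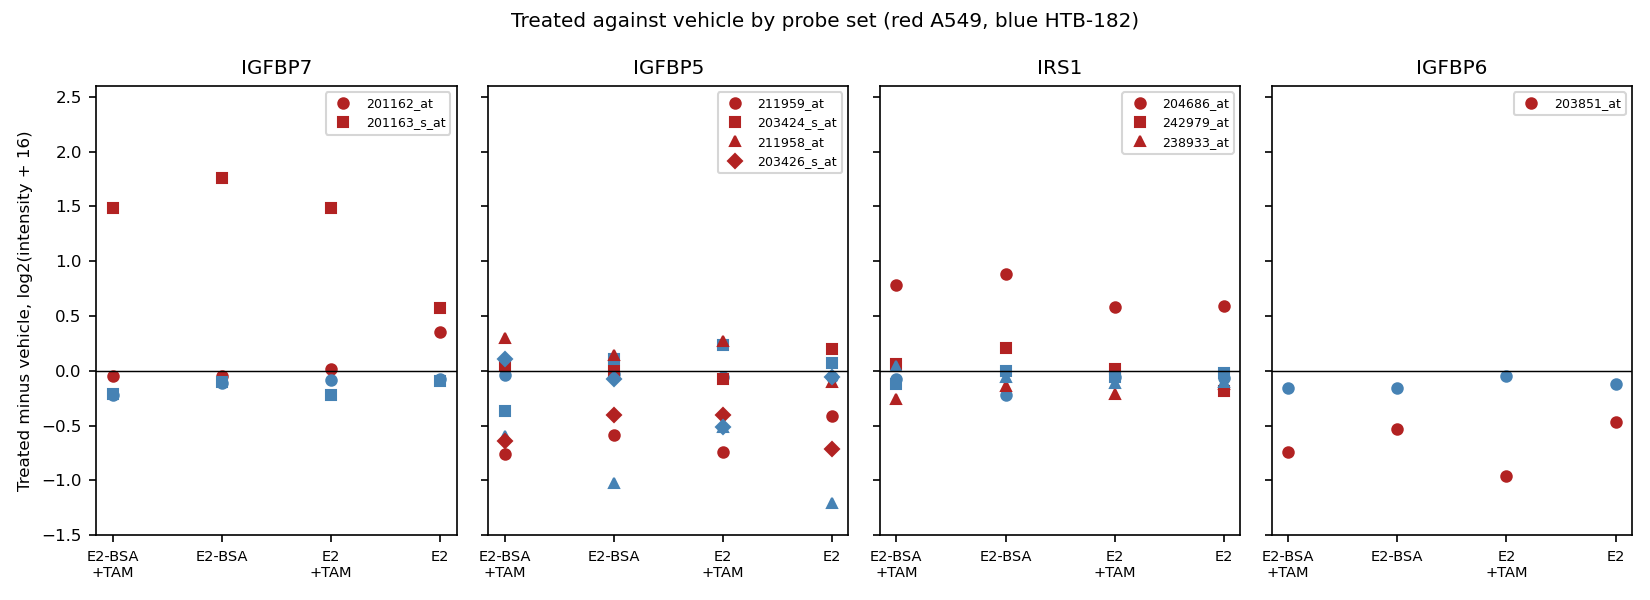
Treated minus vehicle on the log2(intensity + 16) scale for each tested probe set (marker shape) of IGFBP7, IGFBP5, IRS1 and IGFBP6, by treatment, A549 in red and HTB-182 in blue. In A549 IGFBP7 201163_s_at lies at 0.57 to 1.76 while 201162_at lies at -0.05 to 0.35, and IGFBP6 lies at -0.96 to -0.47.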

How the data were processed

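The authors deposited 1 table of linear intensities for all arrays, made with MAS5 per the submitters' processing notes, with no version or scaling target in the sources used here. Trimmed means of the arrays ran from 105.86 to 115.68, so the deposited scaling was kept. Probe sets were named from the platform annotation, and only the 41091 naming 1 gene were used, of which 41037 matched a RefSeq gene table with 0 symbol changes. The authors deposited no log values, and log2(intensity + 16) was computed here. Probe sets with a mean log2 at or above the median of all were tested (intensity 19.7).

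Differences were fitted on all 10 arrays with limma 3.58.1 in R 4.3.3, with a mean-variance trend and p-values adjusted by Benjamini-Hochberg over all 23144 tested probe sets at 0.05. The additive model held cell line and treatment (4 residual degrees of freedom), and each test of a difference between lines added 1 term (3 residual degrees of freedom). The cell line is the block that pairs arrays for treatment comparisons, because both arrays of a treatment pair are of 1 line, and the treatment is the block for the line comparison. The additive fit was checked on simulated data. The labels give no scan dates or other batches. Tables and figures were made with pandas 2.3.3 and matplotlib 3.10.9 in Python 3.11.15.

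Every member probe set is reported, with values of every array for the brightest of each gene and any other that passed a test. Pathway genes are counted over the whole list, and named for up to 6 changes in each direction past the threshold, with IGF1, IGF2, INSR and IRS2 always given. The members and lists were chosen with earlier results of these data known. Alternatives were pseudocounts of 1 and 64, no filter, rescaling, quantile normalization, the brightest probe set per gene, array weights, no block, and leaving out each array. With 1 array per combination, the number of arrays limits the precision.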

Additional observations from a re-analysis of the deposited data

Results flagged for a closer look

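In 2 of the 21 member probe sets the response to treatment differed between the lines by a test of the difference itself, beside 3.38% of all tested. IGFBP7 201163_s_at had 1.49 on the log2 scale (limma adjusted p = 0.035, 7.48e-05 to 0.0811 over the alternatives), with A549 higher on all 4 treated arrays and HTB-182 lower on all 4. IGFBP5 211958_at had 0.99 (limma adjusted p = 0.0273, 0.0143 to 0.0504 over the alternatives), with HTB-182 lower on all 4 treated arrays and A549 higher on 3 of 4. For each gene the probe set with the highest mean over all arrays was not called, though for IGFBP7 that probe set was not the brighter in A549. Both differences rest on 1 vehicle array per line, and the part of the A549 vehicle array, which stood apart, was not tested.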

How the results depend on the processing

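Of 911 values of 53 results under 18 alternatives, 860 kept their direction and their side of the threshold, 8 no longer passed it, 28 newly passed it and 15 reversed. In the line comparison the 20 called member probe sets were called with the same direction in every alternative that tested them. With the brightest probe set per gene the line comparison called 8534 probe sets, 10 of them members. The reversals were of IGFBP1, IGFBP7 201163_s_at and IRS1 204686_at. IGFBP1's tamoxifen effect ranged from -0.78 to 0.41 when arrays were left out, its estradiol against vehicle difference from -0.65 to 1.13, and its estradiol plus tamoxifen against vehicle difference from -1.03 to 0.98, being 0.012 after rescaling to 1 trimmed mean and 0.048 after quantile normalization. With arrays left out, the differences from vehicle of IGFBP7 201163_s_at ranged from -0.11 to 1.38 for estradiol-BSA plus tamoxifen and -0.11 to 1.37 for estradiol plus tamoxifen, and those of IRS1 204686_at from -0.052 to 0.76, -0.078 to 0.74 and -0.15 to 0.67 for estradiol-BSA plus tamoxifen, estradiol-BSA and estradiol plus tamoxifen.

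The 1 probe set called for estradiol-BSA against estradiol became 0 with no filter, rescaling, quantile normalization or no replicate block, and 0 to 2 when arrays were left out. That block was the cell line, and leaving it out changed the call of no member. For the line comparison the block was the treatment, and without it 15107 probe sets were called, 20 of them members. When arrays were left out, calls against vehicle ranged from 0 to 2967 for estradiol-BSA plus tamoxifen (0 to 5 members), 0 to 2716 for estradiol-BSA (0 to 3), 0 to 2150 for estradiol plus tamoxifen (0 to 4) and 0 to 1454 for estradiol. Differences between lines had 0 to 4 calls for tamoxifen, 0 to 6 for the estrogen form (0 to 1 members) and 448 to 3502 for treated against vehicle (1 to 4 members). Array weights gave 9231 calls among the 23144 tested for the estrogen form, with 10 of the 21 members called. They gave 1981 calls for treated against vehicle, and 2 weighted fits stopped before convergence. For treated against vehicle the members called were 0 with no filter, 1 after rescaling, 1 after quantile normalization and 0 with the brightest probe set per gene. The cause was not tested. IGFBP7 201163_s_at had adjusted p of 0.0501, 0.0665 and 0.0699 by limma with no filter, rescaling and quantile normalization, and up to 0.0811 when a tamoxifen array was left out. The median of all probe sets in that comparison was -0.144, and -0.0426 after quantile normalization. That term could not be fitted without either vehicle array, and the fit without the block was not run for the differences between lines. The number of arrays and the signal of dim probe sets limit all values near the filter.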
